A study of Homo sapiens with 6 samples.

Results

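Epithelial and mesenchymal identity genes were read in Ishikawa cells, an estrogen-responsive line from an endometrial adenocarcinoma, with and without the transcription factor gene ETV4. The set is a named list of 10 genes, CDH1, CDH2, EPCAM, VIM, FN1, ZEB1, ZEB2, SNAI1, SNAI2 and TWIST1, and all 10 had a row among the 26364 rows of the raw count table. The study held 6 poly(A)-selected RNA-seq libraries from 3 lines, the parental Ishikawa line and 2 ETV4 knockout clones. Each line gave 1 library after vehicle (0.1% DMSO) and 1 after 10 nM estradiol (E2), so the clones had n = 2 per treatment and the parental line had 1 library per treatment. All lines were first held in hormone-depleted medium, per the labels. The treatment time is given there as 8 h in the protocol and as 1 h in the sample characteristics. Each knockout line is 1 clone, and how the clones were made is not given in the sources used here.

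Epithelial cells hold together through E-cadherin (CDH1) and carry EPCAM on their surface, whereas mesenchymal cells typically use N-cadherin (CDH2), vimentin filaments (VIM) and a fibronectin matrix (FN1). In the epithelial-mesenchymal transition, zinc finger factors of the SNAI and ZEB families and the bHLH factor TWIST1 repress epithelial genes such as CDH1. Normal endometrial epithelium and tumours derived from it can express both keratins and vimentin, so vimentin alone does not mark a mesenchymal cell in this tissue.

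Libraries held 28037392 to 36829479 counts. The parental DMSO library had the lowest TMM scaling factor, 0.899 against 1.01 to 1.04 in the others. For the members, and for further genes called in the genotype or E2 test, results are also given without it where the call or direction changes. Calls of other genes were not refitted without it. ETV4 had 71 to 122 counts in the 4 knockout libraries and 586 and 1063 in the parental DMSO and E2 libraries, in the direction of the labels. The cell type was checked with 10 markers of endometrial epithelium, among them KRT8, KRT18, KRT19, PAX8 and ESR1, and all 10 reached at least 1 CPM (counts relative to the TMM-scaled library size) in every library. Of the other cell types, stroma had 9 markers, of which 4 stayed under 1 CPM in every library. In endothelium 5 of 6 markers did so and in leukocytes 5 of 6. Smooth muscle had 5 markers, of which 2 reached 1 CPM in every library, and their sums in the clones and the parental line overlapped.

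All 6 libraries carried E-cadherin, N-cadherin and EPCAM mRNA together. Their mean CPM lay at the percentiles 98.5 (CDH1), 99.3 (CDH2) and 98.2 (EPCAM) of detected genes. By counts per kilobase of exon, which is the scale on which genes can be compared, EPCAM was highest in each library, at 162 to 232 CPM per kb. CDH2 followed at 136 to 159, CDH1 at 62.1 to 99.4 and FN1 at 15.2 to 24.5 CPM per kb. These 4 ranges did not overlap. TWIST1 ranged from 6.51 to 10.8, SNAI1 from 0.952 to 2.09 and ZEB1 from 0.108 to 0.378 CPM per kb. VIM stood at 1.94 (DMSO) and 1.36 (E2) CPM per kb in the parental line, against 1.52 and 2.09 for SNAI1. In the clones VIM was close to 0. SNAI1 and VIM therefore could not be ordered within the parental line's spread. The exon lengths come from GENCODE 29 (GRCh38), whereas the counts are on hg19, per the submitters' processing notes.

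**Figure D1:**
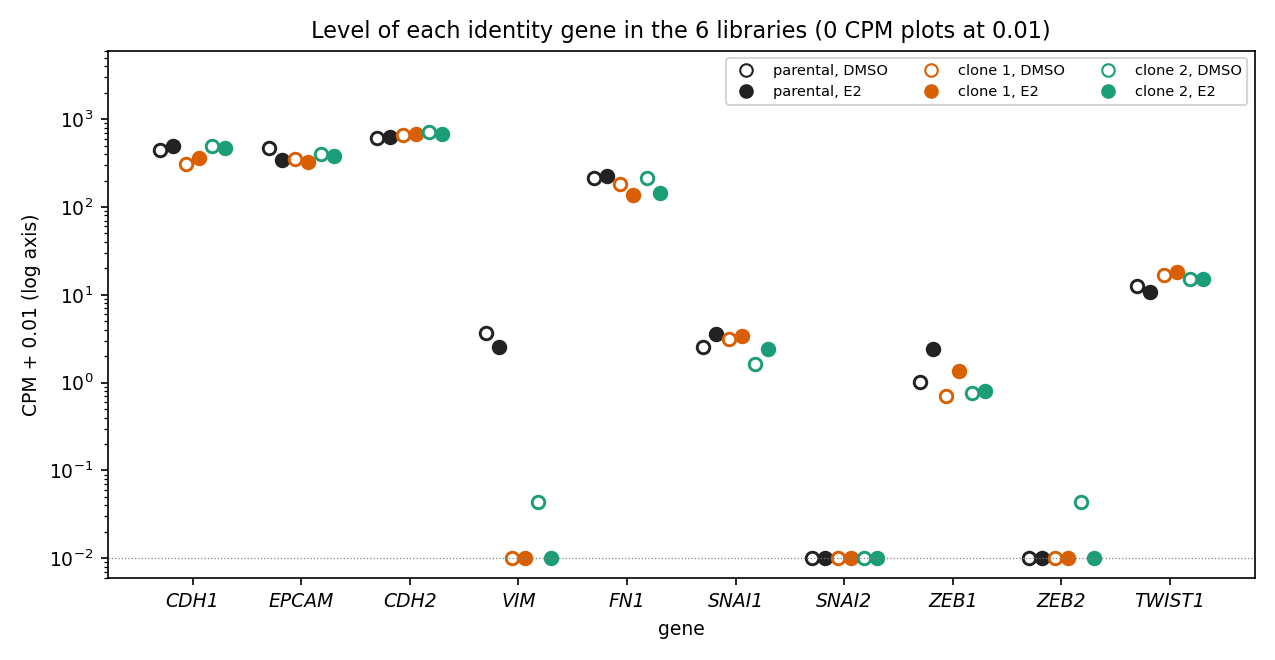
CPM of each of the 10 genes in each library, on a log axis after adding 0.01 CPM, so that a library with 0 counts sits at 0.01. Open circles are DMSO and filled circles E2, each a single library. VIM separated the parental line (3.63 and 2.54 CPM) from the clones, and SNAI2 was at 0 in all 6 libraries.

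Vimentin was the 1 gene of the set that passed the test between genotypes. VIM forms the main intermediate filament of mesenchymal cells. In the parental line it had 108 counts in DMSO and 95 in E2, or 3.63 and 2.54 CPM. Clone 1 had 0 counts in both libraries, and clone 2 had 1 count in DMSO and 0 in E2. The parental and knockout libraries did not overlap in either treatment. Within the parental line E2 stood at 0.699 times DMSO (95% counting interval 0.525 to 0.930). This ratio depends on the TMM scaling factors, which were 0.899 in DMSO and 1.02 in E2. The parental level was itself low, at 1.94 CPM per kb in DMSO against 89.4 for CDH1. In DMSO the parental level was 236 times that of the 2 clones combined (95% exact interval 41.5 to 9422, which covers counting error only). In E2 both clones were at 0, and the parental level was at least 49.5-fold higher than the limit of 3 counts taken over the 2 clone libraries.

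With treatment in the model, VIM was lower in the clones (adjusted p = 0.0131). Here and in what follows the test is edgeR's quasi-likelihood test, and p-values carry a Benjamini-Hochberg adjustment over all tested genes. Its fitted log2 difference of -8.03 depends on the prior count and is not a bound. In the same test 51 of 15611 genes, or 0.327%, passed an adjusted p of 0.05, and 28 of them (0.179%) were lower. VIM passed the filter on low counts through the parental libraries alone, so it had to differ, and the 1 call among the 8 members that could be tested supports nothing beyond VIM itself. Against the parental line, VIM was also lower in clone 1 (edgeR, adjusted p = 0.0190) and in clone 2 (adjusted p = 0.0158). Both comparisons come from the fit with line and treatment and share the parental libraries. VIM had to differ in them for the same reason, so they add no further support. In those comparisons 1.35% and 1.51% of all genes passed, and 0.544% and 0.878% were lower. Without the parental DMSO library, a choice made after seeing the data, the adjusted p of VIM in edgeR's genotype test was 0.275, and the remaining counts were 95 in 1 parental library against 1 in 4 knockout libraries. Genotype and any other trait in which the parental line differs from the clones cannot be told apart. The genotype model counts the DMSO and E2 libraries of a line as separate observations, although only 2 clones and 1 parental line were compared. The p-values, here and below, measure only the spread between these libraries.

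The antisense gene VIM-AS1 had 1 count in each parental library and 0 in the clones. The use of strand in counting is not given in the sources used here, so reads of the 2 genes cannot be told apart. Stromal markers summed to 58.4 to 80.4 CPM in the clones and to 66.8 to 95.3 CPM in the parental line, ranges that overlapped, with most of the sum from COL1A1. Of the 9 stromal markers, 2 were higher in both parental libraries than in all 4 knockout libraries, as VIM was. COL3A1 stood at 7.93 and 9.73 CPM against 1.34 to 3.35 CPM in the clones, and PDGFRA at 0.538 and 0.321 CPM against 0.102 to 0.251 CPM. DCN, LUM and PDGFRB stayed at or under 0.0837 CPM in every library. Smooth muscle markers summed to 8.47 to 14.0 CPM in the clones and 10.2 to 15.6 CPM in the parental line. Of these 5 markers, 2 separated the lines in the same direction, DES at 1.21 and 1.07 CPM against 0.274 to 0.717 CPM and ACTG2 at 2.22 and 1.44 CPM against 0.446 to 0.893 CPM. Endothelial markers ran the other way, with sums of 3.21 to 4.86 CPM in the clones against 1.92 to 2.67 CPM in the parental line, most of it VWF, with PECAM1 and CDH5 at or near 0. The part of these markers in the VIM result was not tested. In bulk RNA, fewer cells with VIM and less VIM per cell cannot be told apart.

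The VIM promoter is shown because ETV4 is an ETS-family factor and VIM was the member that passed the genotype test. The window is the 250 bases before the RefSeq start on the plus strand (chr10:17227991-17228240, GRCh38.p14), written 5′ to 3′ with each GGAA, the core of ETS-family motifs, in capitals on either strand (TTCC on the printed one).
VIM: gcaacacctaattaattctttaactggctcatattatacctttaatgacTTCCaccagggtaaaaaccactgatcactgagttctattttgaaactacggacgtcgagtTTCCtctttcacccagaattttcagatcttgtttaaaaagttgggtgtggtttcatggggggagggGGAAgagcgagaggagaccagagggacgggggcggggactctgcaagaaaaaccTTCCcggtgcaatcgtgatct
The window held 4 such cores, against a median of 3 over 35116 promoters of the same length. At least 4 were present in 34.3% of promoters and at least 1 in 92.7%. The matches describe letters in this window, not binding.

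E-cadherin, the adhesion receptor of epithelial junctions, was lowest in clone 1. In the parental line CDH1 stood at 445 CPM (DMSO) and 494 CPM (E2). It stood at 309 and 364 CPM in clone 1 and at 491 and 470 CPM in clone 2. Both clone 1 libraries lay under the other 4, while clone 2 lay within or close to the parental range. The clones averaged 400.0 ± 129 CPM in DMSO and 417 ± 74.7 CPM in E2 (SD, n = 2). The log2 difference between genotypes was -0.20 (SE 0.22, 95% interval -0.72 to 0.32, edgeR adjusted p = 0.679), and it was 0.020 without clone 1. Clone 1 differed from the parental line by -0.48 (SE 0.16, edgeR adjusted p = 0.300), and clone 2 from clone 1 by 0.52 (SE 0.16, edgeR adjusted p = 0.283). In the latter comparison 0.871% of all genes passed and 0 of the 8 members did. DESeq2 and limma-voom also called 0 members, against 2.36% and 0.858% of all genes. In edgeR 2 members, CDH1 and SNAI1, were at an unadjusted p under 0.05, against 12.1% of all genes. Without the parental libraries, where 1 residual degree of freedom is left, both were called by edgeR (adjusted p 0.00686 for CDH1 and 0.0225 for SNAI1), in a fit that called 18.3% of all genes.

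N-cadherin, the adhesion receptor that mesenchymal and neural cells use, had the narrowest range, relative to its level, of the members detected in every library. CDH2 ranged from 607 CPM in the parental DMSO library to 708 CPM in the clone 2 DMSO library. The remaining libraries were at 631 CPM (parental, E2), 658 and 678 CPM (clone 1, DMSO and E2) and 673 CPM (clone 2, E2). All 4 knockout libraries lay above both parental ones. The genotype difference was 0.13 (SE 0.13, 95% interval -0.18 to 0.45, edgeR adjusted p = 0.655).

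The ratio of CDH1 to CDH2 counts within a library needs no scaling between libraries. The parental line had 0.733 (DMSO) and 0.783 (E2). The ratio was 0.694 and 0.698 in clone 2, and 0.470 and 0.537 in clone 1. CDH2 also exceeded CDH1 per kilobase in every library, and clone 1 had the lowest ratio under each treatment. On the log2 scale clone 1 lay 0.64 under the parental line in DMSO, with a counting interval of its ratio of -1.12 to -1.06 against -0.48 to -0.42 for the parental library. The ratio has no replicate within a line and treatment and was not tested.

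EPCAM, an epithelial surface glycoprotein, did not separate the genotypes. It stood at 467 CPM in DMSO and 341 in E2 in the parental line, at 354 and 325 CPM in clone 1 and at 402 and 379 CPM in clone 2. On the TMM scale the parental DMSO library was the highest of the 6, and the parental E2 library lay among the clones. The rank of the parental DMSO library depends on its scaling factor. The genotype difference was -0.13 (SE 0.16, 95% interval -0.50 to 0.24, edgeR adjusted p = 0.704). Without the parental DMSO library, chosen after seeing the data, it was 0.036.

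**Figure D2:**
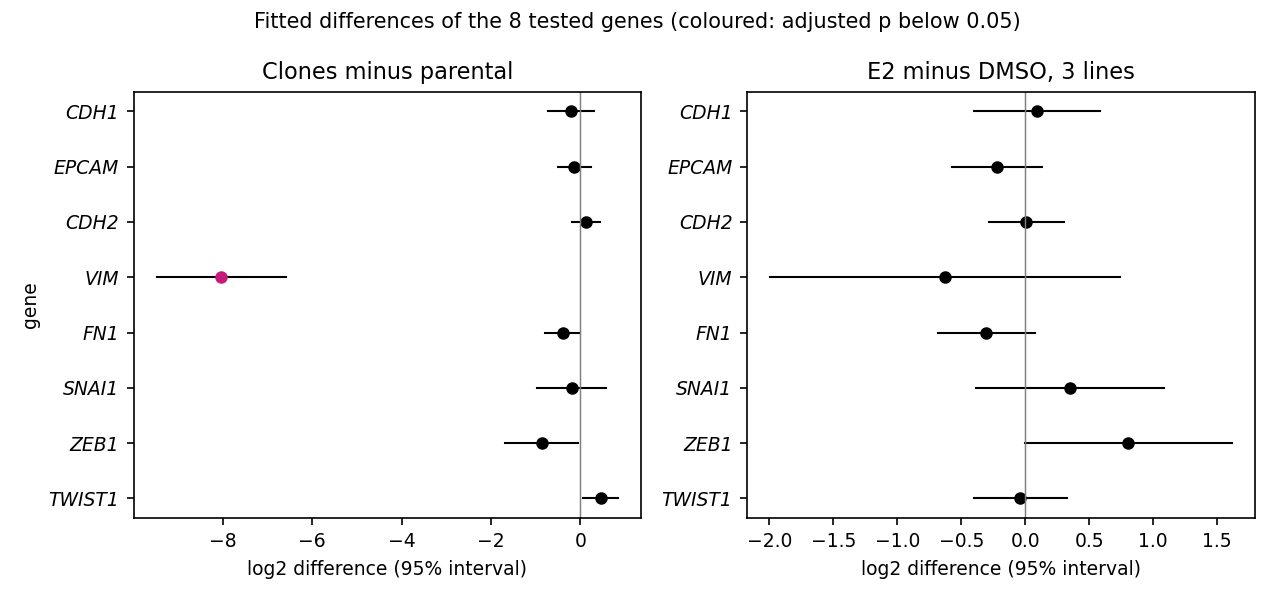
Fitted log2 differences of the 8 genes that could be tested, with 95% intervals from edgeR's quasi-likelihood fit, for the clones minus the parental line (left) and for E2 minus DMSO over 3 lines (right). VIM in the genotype comparison is the coloured point (adjusted p 0.0131), and its position depends on the prior count.

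Fibronectin, the matrix protein that mesenchymal cells assemble, was lower in E2 than in DMSO in both clones but not in the parental line, a contrast that did not pass its test. FN1 in the parental line stood at 213 CPM (DMSO) and 223 CPM (E2). In clone 1 it stood at 182 and 138 CPM, and in clone 2 at 213 and 143 CPM. In E2 both clones (141 ± 3.25 CPM, SD, n = 2) lay under the parental library, while in DMSO clone 2 stood at 1.003 times the parental level. Within each clone FN1 was lower in E2, at 0.762 times the DMSO level in clone 1 (95% counting interval 0.732 to 0.793) and 0.670 times in clone 2 (0.644 to 0.697). In the parental line E2 and DMSO stood at a ratio of 1.05 (1.01 to 1.08), which depends on the scaling of these libraries.

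Over the 4 clone libraries the E2 difference of FN1 was -0.50 (SE 0.15, edgeR adjusted p = 0.425). In that test 0 of 7 tested members and 0.329% of all genes passed. FN1 was the 1 member at an unadjusted p under 0.05 there, against 8.70% of all genes. DESeq2 and limma-voom called 0 members, against 2.08% and 0.255% of all genes. With clone as a replicate block the difference was -0.49, with an adjusted p of 0.00902, from a fit that left 1 residual degree of freedom, shared 1 spread over all genes and called 2227 of 14881 genes. The test of the difference in E2 effect between genotypes gave -0.56 (SE 0.27, 95% interval -1.21 to 0.10) with adjusted p = 0.617 in edgeR, or 0.118 with the replicate block. That test called 0 of 8 members and 0% of all genes. At an unadjusted p under 0.05 there were 0 members, against 7.62% of all genes. DESeq2, limma-voom and the block called 0 members, against 0.186%, 0% and 15.8% of all genes. A difference in the FN1 response between genotypes therefore did not pass. The genotype difference of FN1 over both treatments was -0.39 (SE 0.17, 95% interval -0.79 to 0.00, edgeR adjusted p = 0.439). Without the parental DMSO library, a choice made after seeing the data, FN1 was lower in clone 1 (-0.74, edgeR adjusted p = 0.00185) and in clone 2 (-0.60, adjusted p = 0.0235) than in the parental E2 library, in fits with 1 spread for all genes that called 9.21% and 8.05% of all genes.

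**Figure D3:**
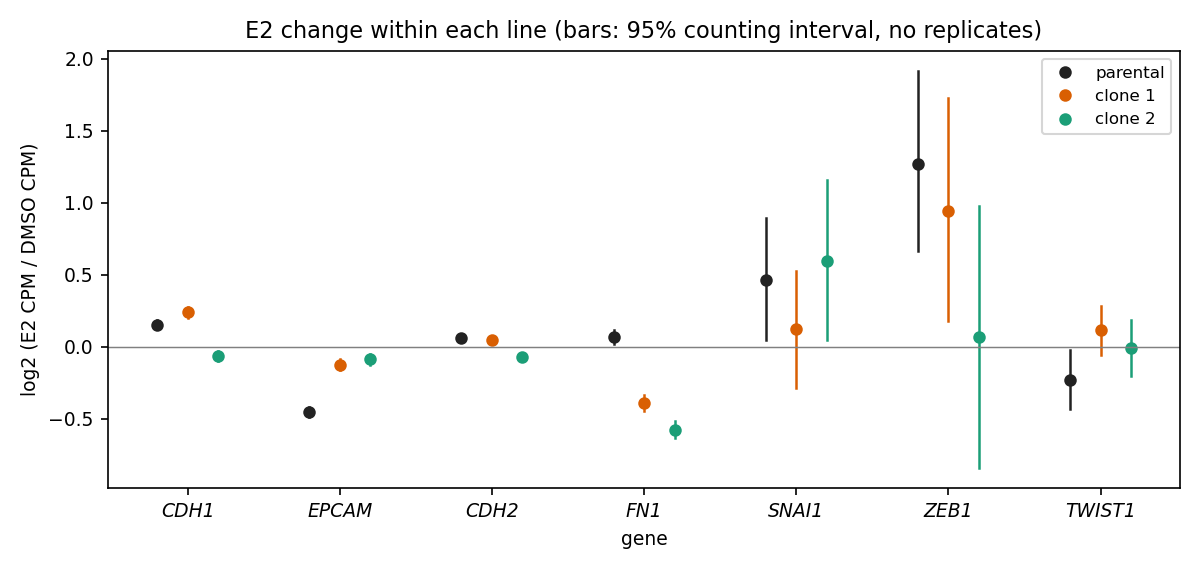
Log2 ratio of E2 to DMSO CPM within each line for 7 genes, with 95% intervals that cover counting error only, since each point compares 2 single libraries. VIM, ZEB2 and SNAI2 are left out because clones were at or near 0 counts. FN1 was lower in E2 in both clones and stood at a ratio of 1.05 in the parental line, and ZEB1 had the widest spread between lines.

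Of the factors that drive the transition, SNAI2 was not detected and ZEB2 had a single count. SNAI2, a zinc finger repressor of CDH1, had 0 counts in all 6 libraries, which allows at most 3 counts or 0.0802 to 0.103 CPM in a library. ZEB2 had 1 count, in clone 2 in DMSO, and 0 in the other 5. Neither could be tested. ZEB2-AS1 had 0 counts in all libraries.

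ZEB1, the zinc finger and homeobox repressor of epithelial genes, was low. It had 30 counts in DMSO and 91 in E2 in the parental line, or 1.01 and 2.43 CPM. Clone 1 had 25 and 39 counts (0.698 and 1.34 CPM) and clone 2 had 22 and 23 (0.751 and 0.786 CPM). The parental E2 library was the highest, and the parental DMSO library lay within the range of the clones. The genotype difference was -0.87 (SE 0.34, 95% interval -1.69 to -0.05, edgeR adjusted p = 0.414). In E2, ZEB1 stood at 0.550 times the parental level in clone 1 (95% counting interval 0.368 to 0.808) and at 0.323 times in clone 2 (0.195 to 0.515), while in DMSO both intervals included 1. Clone 2 against the parental line gave -1.07 (SE 0.38, edgeR adjusted p = 0.206), and -1.40 (adjusted p = 0.00726) without the parental DMSO library, a choice made after seeing the data, where 8.05% of all genes were called. Within lines, E2 stood at 2.41 times DMSO in the parental line (95% counting interval 1.58 to 3.77), 1.92 times in clone 1 (1.13 to 3.30) and 1.05 times in clone 2 (0.557 to 1.97). ZEB1-AS1, transcribed from the opposite strand beside ZEB1, stood at 3.06 (DMSO) and 2.94 CPM (E2) in the parental line. In the clones it stood at 3.12 to 4.41 CPM, a genotype difference of 0.32 (SE 0.22, edgeR adjusted p = 0.550). The use of strand in counting is not given, so reads of ZEB1 and ZEB1-AS1 cannot be told apart.

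The ZEB1 promoter is shown because, of the 5 members whose promoter was read (CDH2, VIM, FN1, ZEB1 and ZEB2), it was the one with a CAGGTG box, the E-box that SNAI and ZEB factors bind. The window is the 250 bases before the RefSeq start on the plus strand (chr10:31318167-31318416, GRCh38.p14), with the box in capitals.
ZEB1: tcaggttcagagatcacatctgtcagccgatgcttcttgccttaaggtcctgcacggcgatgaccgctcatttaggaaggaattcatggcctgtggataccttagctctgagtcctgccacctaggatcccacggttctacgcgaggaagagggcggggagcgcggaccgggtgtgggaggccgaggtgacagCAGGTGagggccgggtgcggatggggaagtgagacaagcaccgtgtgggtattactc
CAGGTG was searched on both strands (CACCTG on the other), began 57 bases before the start in ZEB1, and was present in 17.5% of the 35116 promoters. It did not overlap a GGAA core.

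SNAI1, the zinc finger repressor that acts early in the transition, was low in all lines. It had 76 counts in DMSO and 132 in E2 in the parental line (2.55 and 3.53 CPM), 112 and 99 in clone 1 (3.13 and 3.39 CPM) and 47 and 71 in clone 2 (1.61 and 2.43 CPM). Both clone 2 libraries lay under the other 4. Clone 2 differed from clone 1 by -0.72 (SE 0.24, 95% interval -1.30 to -0.14, edgeR adjusted p = 0.317). The genotype difference was -0.19 (SE 0.33, edgeR adjusted p = 0.794), and 0.11 without clone 2. Against the parental line the fitted difference was 0.12 for clone 1 and -0.60 for clone 2.

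TWIST1, a bHLH factor of mesoderm and neural crest, was the highest of the 5 factors per kilobase. In the parental line it stood at 12.7 CPM (DMSO) and 10.8 CPM (E2), at 16.6 and 18.0 CPM in clone 1 and at 15.1 and 15 CPM in clone 2. All 4 knockout libraries lay above both parental ones. The genotype difference was 0.46 (SE 0.16, 95% interval 0.07 to 0.85), at an unadjusted p of 0.0280 (edgeR, adjusted p = 0.378). TWIST1 did not pass the threshold. In clone 1 against the parental line, and without the parental DMSO library, a choice made after seeing the data, it did (0.69, edgeR adjusted p = 0.00444), in the fit that called 9.21% of all genes.

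E2 against DMSO, tested in all 3 lines jointly with a genotype term, called 0 of the 8 tested members in edgeR's quasi-likelihood test, against 1.13% of all genes. No member had an unadjusted p under 0.05, against 20.4% of all genes. DESeq2, limma-voom and the fit with line as a replicate block called 0 members, against 7.14%, 1.11% and 2.46% of all genes. Of the 8, ZEB1 had the largest fitted E2 difference, at 0.81 (SE 0.34, 95% interval -0.00 to 1.61), with an adjusted p of 0.246. Without clone 2 it was 1.11, with an adjusted p of 0.0253, in a fit that called 21.6% of all genes. The narrowest interval was that of CDH2, at 0.01 (95% interval -0.28 to 0.30), and TWIST1 stood at -0.04 (-0.40 to 0.32), both of which changed sign with some libraries left out. CDH1 differed by 0.09 (-0.40 to 0.58), EPCAM by -0.22 (-0.57 to 0.13), SNAI1 by 0.35 (-0.39 to 1.09) and FN1 by -0.30 (-0.68 to 0.08). VIM, at -0.63 (-1.99 to 0.74), rests on the parental pair. These intervals reach 1.09 for SNAI1 and 1.61 for ZEB1, so the absence of a call does not show that E2 left them alone.

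Other genes of the program were read through 8 lists of 220 genes in all, every one with a row in the table, 8 of them under an older symbol. Over all tested genes the median log2 difference was 0.01 between genotypes and -0.02 for E2. Of all tested genes, 0.327% passed between genotypes and 1.13% with E2. At these shares, a list of this size without a call says nothing about its genes.

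In the list of mesenchymal structure and matrix genes, 37 of 46 could be tested. Between genotypes, where 0.327% of all genes passed, 0 were higher and 2 lower in the clones, with a list median of -0.18. They were TGFBI, a TGF-beta-induced matrix adhesion protein, and SPARC, a collagen-binding matrix protein, which the naming rule did not select and which is named after its values were seen. TGFBI stood at 12.4 and 8.52 CPM in the parental line (DMSO and E2), at 2.74 and 1.78 in clone 1 and at 2.56 and 1.54 in clone 2. SPARC stood at 2.99 and 1.82 CPM in the parental line and at 0.171 to 0.410 CPM in the clones. As with VIM, parental and knockout libraries of both genes did not overlap. Their log2 differences were -2.29 (SE 0.19, edgeR adjusted p = 0.0143) and -2.86 (SE 0.36, edgeR adjusted p = 0.0404). COL3A1, a fibrillar collagen chain also named after its values were seen, stood at 7.93 and 9.73 CPM in the parental line and at 1.34 to 3.35 CPM in the clones. Its genotype difference was -2.09 (SE 0.38, edgeR adjusted p = 0.117), and it passed in each clone against the parental line (edgeR adjusted p 0.0190 and 0.0448). The calls of COL3A1 in the clones were not refitted without the parental DMSO library.

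E2 changed 3 genes of the same list over the 3 lines, where 1.13% of all genes passed, with a list median of -0.14. THBS1, the matrix glycoprotein thrombospondin, rose from 22.4 to 571 CPM in the parental line, from 21.1 to 215 in clone 1 and from 26.8 to 511 in clone 2. VCAN, a large matrix proteoglycan, rose from 1.34 to 4.97, from 1.34 to 8.78 and from 0.546 to 5.40 CPM in the same order. IGFBP3, a binding protein for insulin-like growth factors, fell from 266 to 115, from 111 to 42.3 and from 165 to 50.7 CPM. Each of the 3 moved the same way in all 3 lines. Their log2 changes were 4.17 (SE 0.38, edgeR adjusted p = 0.00721), 2.55 (SE 0.42, adjusted p = 0.0494) and -1.45 (SE 0.19, adjusted p = 0.0261). With median-ratio scaling the adjusted p of VCAN was 0.0517. The adjusted p was 0.127 for VCAN and 0.0716 for IGFBP3 without the parental DMSO library.

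**Figure D4:**
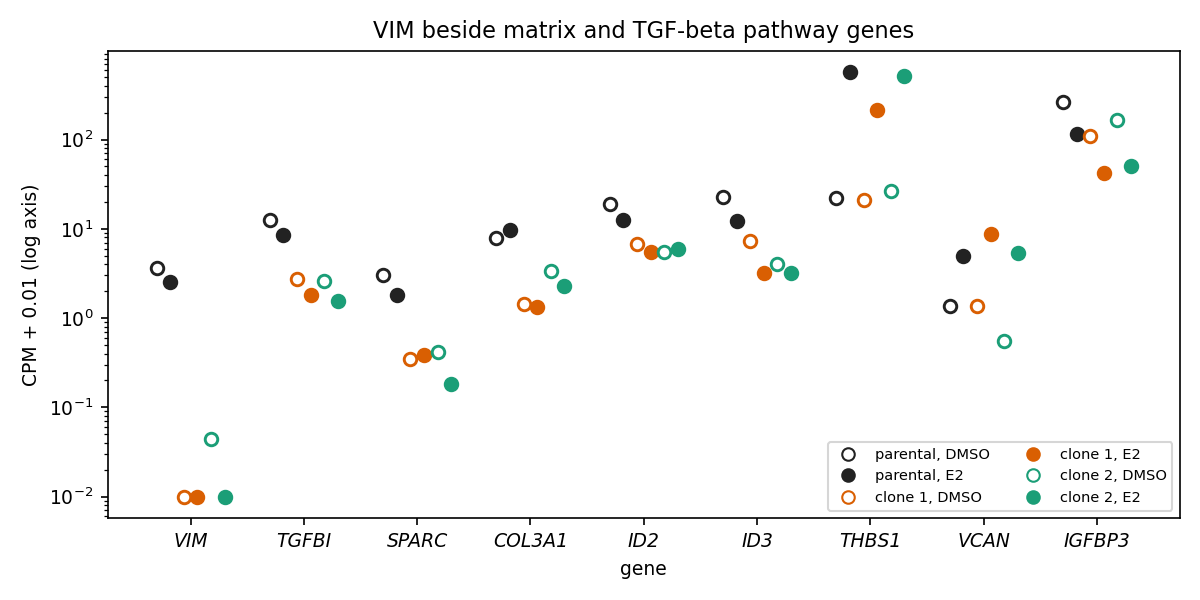
CPM (log axis, 0.01 added) of VIM beside genes of the matrix and TGF-beta lists, 1 circle per library, open for DMSO and filled for E2. TGFBI, SPARC, COL3A1, ID2 and ID3 were higher in both parental libraries than in all 4 knockout libraries, while THBS1 and VCAN were higher in all 3 E2 libraries than in all 3 DMSO libraries.

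In the TGF-beta pathway list (ligands, receptors, SMADs, inhibitors and ID genes) 31 of 34 genes could be tested, and the list median was 0.03 between genotypes and -0.08 for E2. Between genotypes, where 0.327% of all genes passed, no gene was higher and 2 were lower in the clones. They were ID2 and ID3, targets of BMP signalling whose proteins block bHLH factors. ID3 stood at 22.8 and 12.1 CPM in the parental line and at 3.21 to 7.31 CPM in the clones. ID2 stood at 18.9 and 12.6 CPM in the parental line and at 5.48 to 6.70 CPM in the clones. Their log2 differences were -1.96 (SE 0.24, edgeR adjusted p = 0.0376) and -1.40 (SE 0.18, edgeR adjusted p = 0.0483). ID2 had an adjusted p of 0.0589 with line as a random replicate block. Without the parental DMSO library the adjusted p-values of TGFBI, SPARC, ID3 and ID2 ran from 0.275 to 0.588. ID1 was the 1 gene of this list that changed with E2, by -0.94 (SE 0.13, edgeR adjusted p = 0.0261). It stood at 265 and 130 CPM in the parental line, 155 and 81.4 in clone 1 and 173 and 93.4 in clone 2. Its adjusted p was 0.0585 without clone 1 and 0.113 without the parental DMSO library. No ligand, receptor or SMAD passed in either comparison.

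**Figure D5:**
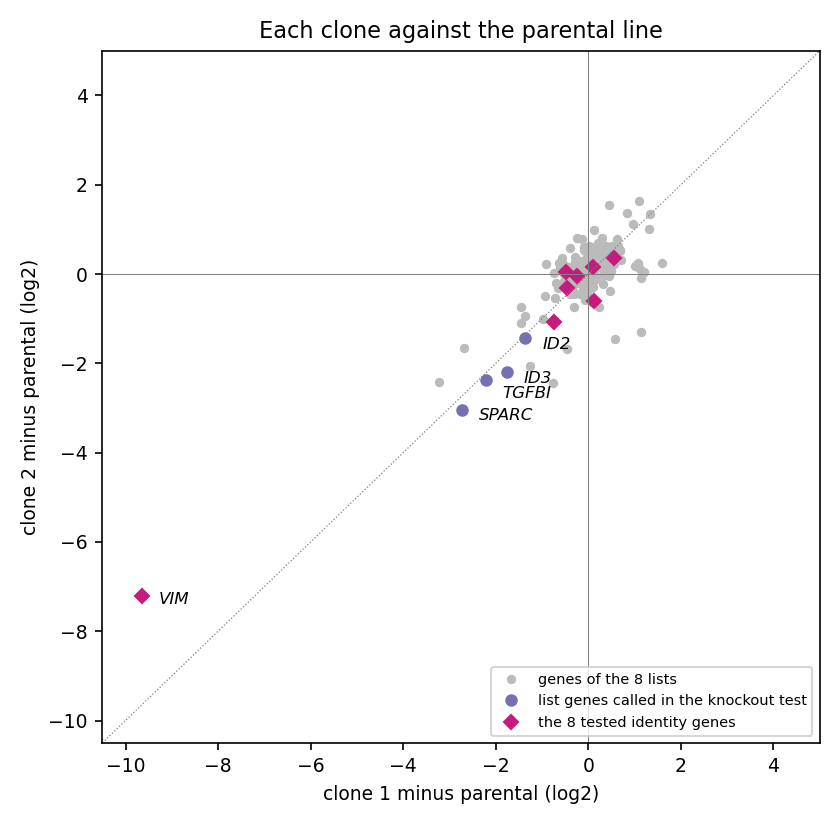
Log2 difference from the parental line in clone 1 (horizontal) and clone 2 (vertical) for the 8 tested identity genes (diamonds) and the tested genes of the 8 lists (circles), from a fit with line and treatment. VIM lies far from the rest, at values that depend on the prior count. TGFBI, SPARC, ID2 and ID3, the list genes called in the genotype test, are marked. They were picked by a test on these same libraries, and both axes share the parental line, so their shared direction in both clones adds no support.

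The epithelial lists held no gene that passed in either comparison, against 0.327% (genotype) and 1.13% (E2) of all genes. All 38 junction and polarity genes were tested, with a median of -0.02 between genotypes and -0.16 for E2. Of these, CTNNA1 and CTNNB1, the alpha and beta catenins that link E-cadherin to actin, had the highest mean CPM. Their genotype differences were -0.15 (SE 0.14) and -0.04 (SE 0.14), and their E2 changes -0.38 (SE 0.13) and -0.25 (SE 0.13). Of 21 factors that maintain epithelial identity, 15 were tested, with medians of 0.25 and -0.10. ESRP1, the splicing regulator of epithelial isoforms, differed by -0.19 (SE 0.13) between genotypes, and GRHL2, an activator of CDH1, by 0.14 (SE 0.14).

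That list includes the miR-200 hairpins, whose mature products repress ZEB1 and ZEB2. MIR200A had 1 count in the parental DMSO library and 23 in the parental E2 library, 8 and 12 in clone 1 and 11 and 24 in clone 2. The mature sequences are shown (RefSeq, GRCh38.p14) to give the 2 seeds that pair with ZEB transcripts, in capitals. The products of miR-200a and miR-141 share one seed, and the other 3 share the other.
hsa-miR-200a-3p: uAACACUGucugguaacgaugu
hsa-miR-141-3p: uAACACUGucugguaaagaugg
hsa-miR-200b-3p: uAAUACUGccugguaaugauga
hsa-miR-200c-3p: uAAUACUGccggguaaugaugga
hsa-miR-429: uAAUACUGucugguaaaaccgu
Poly(A)-selected libraries do not measure these mature RNAs. The counts are of transcript fragments over the hairpin rows, and MIR200C had 1 count in all libraries together.

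The remaining lists gave 1 call in these comparisons. Of 25 other transcription factors that promote a mesenchymal state, 21 were tested and none passed, with medians of 0.20 between genotypes and -0.07 for E2. The most abundant, YBX1 and MSX1, differed by -0.30 (SE 0.16) and -0.15 (SE 0.13) between genotypes. Of 21 fibronectin receptors and assembly factors, 19 were tested, with medians of 0.30 and -0.19. TGM2, a transglutaminase that crosslinks fibronectin, rose with E2 by 1.03 (SE 0.13, edgeR adjusted p = 0.0211), from 30.3 to 66.6 CPM in the parental line, 53.6 to 89.9 in clone 1 and 45.8 to 105 in clone 2. Its adjusted p was 0.113 without the parental DMSO library. Of 16 other classical cadherins 7 were tested and none passed, with medians of -0.08 and -0.32. CDH6, the most abundant, stood at 642 and 571 CPM in the parental line and at 726 to 1095 CPM in the clones, a difference of 0.58 (SE 0.15, edgeR adjusted p = 0.255), and CDH3 differed by -0.13 (SE 0.31). All 23 genes for SNAI corepressors and stability were tested and none passed, with medians of 0.04 and -0.0085. Among them HDAC1 differed by -0.09 (SE 0.14) and CSNK1A1 by -0.13 (SE 0.14) between genotypes.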

How the data were processed

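The raw table deposited by the authors gives the count of reads per gene in each library, in whole numbers. Their other deposited table, a normalized signal, equalled the raw count over a median-ratio size factor and was not tested. Per the submitters' processing notes, HISAT2, SAMtools, Subread, DESeq2 and the build hg19 were used, with no role or version given. The annotation and the use of strand in counting are not given in the sources used here. DMOS and ER in column names were read as DMSO and E2.

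The analysis used edgeR 4.0.16 under R 4.3.3 (TMM, filterByExpr on the 4 groups, quasi-likelihood test, Benjamini-Hochberg adjustment over all tested genes, threshold 0.05). The filter kept 15611 of 26364 genes, and 14881 for the clones alone. Models were treatment plus genotype, their interaction, and line plus treatment. In each of them the DMSO and E2 libraries of a line count as 2 separate observations, although they come from the same line. Single-library log2 changes used a prior count of 2. Intervals of ratios are 95% exact intervals for counting error and leave out error in the scaling factors.

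The clone numbers pair the libraries, since both libraries of a number come from the same clone. As a check, clone 2 minus clone 1 was taken under each treatment, and the 2 sets of differences had a correlation of 0.626 across genes. Alternatives were median-ratio scaling, other filters, DESeq2 1.42.0, limma-voom (limma 3.58.1), replicate blocks, each line left out and other prior counts. Leaving out the parental DMSO library was chosen after seeing the data. From each list the rule named up to 4 genes called in the genotype or E2 test with a mean of at least 2 CPM, or otherwise the 2 most abundant. The members, lists and markers were chosen with earlier results of these data known. Fits were tested on simulated data.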

Additional observations from a re-analysis of the deposited data

Results flagged for a closer look

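FN1 was lower with E2 in both clones, while its change in the parental line was small and of the opposite sign. Between single libraries, the log2 change of FN1 came to 0.066 for the parental pair, -0.39 for clone 1 and -0.58 for clone 2. Changes of at least this size were common in the same library pairs. They were seen in 92.2% of all genes for the parental line, 29.02% for clone 1 and 16.8% for clone 2. The test of the difference in FN1 change between genotypes, the interaction of E2 with genotype, was -0.56 (SE 0.27, edgeR adjusted p = 0.617) and did not pass.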

How the results depend on the processing

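The genotype difference of VIM kept its direction in every alternative in which VIM was tested. That direction was fixed in advance, since each knockout library held 0 or 1 VIM counts and the parental libraries held 108 and 95. With at least 10 counts in every library VIM was not tested, which left 0 members called in the genotype comparison and in either clone against the parental line. Without the parental DMSO library, chosen after seeing the data, edgeR called 0 members in the genotype comparison, where it called 2 genes in all, and 3 in each clone against the parental line (VIM, FN1 and TWIST1 in clone 1, and VIM, ZEB1 and FN1 in clone 2), where 9.21% and 8.05% of all genes were called. Leaving out a line gave 1 member called, VIM, for the genotype comparison with either clone out. Those fits called 4.09% (without clone 1) and 6.41% (without clone 2) of all genes. For E2 over 3 lines, 0 to 1 members were called with a line out (ZEB1 without clone 2, where 21.6% of all genes were called). For clone 2 against clone 1 without the parental line, 2 members were called, where 18.3% of all genes were called. The replicate block (pairing by clone) called 1 member for E2 in the clones alone, FN1, among 2227 of 14881 genes called, and changed no other member's call. Fits without a clone, the clone comparison without the parental line, the clone comparisons without the parental DMSO library and the paired fits of the clones and the interaction had an infinite prior degrees of freedom, that is, 1 spread for every gene. Some small differences changed sign. With a line left out, the genotype difference ran from -0.48 to 0.020 for CDH1 and from -0.62 to 0.11 for SNAI1, and the E2 difference from -0.032 to 0.052 for CDH2 and from -0.14 to 0.048 for TWIST1. Without the parental DMSO library the genotype difference of EPCAM was 0.036, the E2 difference was -0.033 for CDH2 and 0.039 for TWIST1, and clone 2 against the parental line was -0.0062 for CDH1 and 0.13 for EPCAM. Prior counts of 0.5 and 5 moved no cadherin ratio beyond its counting interval. Levels of the members relative to the parental DMSO library were also taken from total counts and from the deposited normalized values. Of these, 27 moved beyond the counting interval and 47 did not, so small differences from that library depend on the scaling. Depth limits VIM, ZEB1 and SNAI1, whose counts stayed at or under 132 in each library.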

Other observations

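The genes below passed against the parental line in 1 or both clones or differed between the clones, and were named after their values were seen, other than IGFBP3. The calls given here were not refitted without the parental DMSO library. ITGB8, an integrin chain that activates TGF-beta, was higher in both clones, at 201 to 308 CPM against 99.9 and 98.6 CPM in the parental line, at edgeR adjusted p-values of 0.0492 (clone 1) and 0.0448 (clone 2). TGFB2, a TGF-beta ligand, was higher in clone 1 (43.2 and 26.6 CPM in DMSO and E2, against 13.6 and 9.22 CPM in the parental line) at an edgeR adjusted p of 0.0342, and stood at 20.4 and 8.44 CPM in clone 2. ACTA2, a smooth muscle actin, was lower in clone 1 (5.61 and 3.84 CPM against 15 and 10.9 CPM, adjusted p 0.0258 in edgeR's test). Clone 2 differed from the parental line in the same direction, by -0.73 (edgeR adjusted p = 0.105). IGFBP3 was also lower in clone 1 (-1.36, adjusted p 0.0342 in edgeR's test), and clone 2 stood at -0.93 from the parental line. AXL, a receptor tyrosine kinase, was lower in clone 2 (1.67 and 1.43 CPM against 5.18 and 4.81 CPM, adjusted p 0.0281 in edgeR's test). For AXL, clone 1 stood at -0.46 from the parental line. RUNX2, a factor of bone and mesenchymal programs, was higher in clone 2 (4.82 and 4.27 CPM against 1.41 and 1.52 CPM in the parental line; 1.63, adjusted p 0.0393 in edgeR's test), and stood at 2.87 and 3.46 CPM in clone 1.

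The type II cadherins CDH12 and CDH18 differed between the clones. CDH12 stood at 29.4 and 23.5 CPM in clone 1, 5.77 and 4.03 CPM in clone 2 and 13.0 and 11 CPM in the parental line, so the clones lay on opposite sides of it, each past the threshold against it (adjusted p 0.0373 and 0.0239 in edgeR's test). The difference of clone 2 from clone 1 was -2.44 (SE 0.16, edgeR adjusted p = 0.00562). CDH18 was lower in clone 2 (log2 difference -1.69, SE 0.22, adjusted p 0.0338 in edgeR's test). EHF, an epithelial ETS factor, was higher in clone 1 (20.2 and 45.5 CPM) than in the parental line (8.34 and 22.5 CPM; 1.14, edgeR adjusted p = 0.0445) and than in clone 2 (9.43 and 17.9 CPM, adjusted p = 0.0440). Clone 2 stood at -0.087 from the parental line.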
